A study of Mus musculus with 4 samples.

Results

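Some of the chromatin that was open in every library of this ATAC-seq series lay far inside long genes. The members described here were chosen from the peak calls themselves. Peaks of the 4 libraries were merged into union regions wherever they overlapped by at least 1 bp. A union region was called shared when all 4 libraries had a peak in it. A shared region was a member when its midpoint lay inside a protein-coding gene and at least 50 kb from both ends of every protein-coding gene that contained it. There were 4842 members among 53062 shared regions (9.13%) and 91858 union regions (5.27%). The stretch of a gene that lies at least 50 kb from those ends is called its interior, and a gene with a member in its interior is called a host.

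ATAC-seq uses a transposase to insert sequencing adapters into open DNA, so a peak marks a stretch of accessible chromatin. The cells were mouse bone marrow-derived macrophages, grown over 7 to 10 days from marrow of the femur and tibia, in medium with 20% conditioned medium of L929 cells, which supplies macrophage growth factor. The knockout group (KO) came from Ezh2 fl/fl mice with LysM-Cre +/-, in which Cre is made from the Lyz2 locus and deletes the floxed gene in myeloid cells. The wild-type group (WT) came from littermate controls, for which the labels give no further genotype. Ezh2 is the enzyme of Polycomb repressive complex 2, which methylates lysine 27 of histone H3. All 4 libraries, 2 per genotype, came from cells kept for 24 hours in conditioned medium of the mouse hepatoma line Hepa1-6, so no library here is without that exposure. Whether the replicates are different mice or cultures is not stated, and the spread between them may be technical. Depth is unknown, because the lists give peaks and no read counts. The lists held 67055 to 72887 peaks. In the Ezh2 gene itself, WT libraries had 5 and 3 peaks and KO libraries 4 and 3, which does not check the deletion, because the labels do not give its position. A shared region lay within 1 kb of an end of all 12 macrophage genes looked up. The same held for 1 of 5 neutrophil genes (S100a8), 1 of 5 B cell genes (Cd79a), 1 of 5 T and NK cell genes (Cd3d), 3 of 4 dendritic cell genes, 1 of 4 fibroblast genes (Col1a1), 3 of 4 erythroid genes and 1 of 4 hepatocyte genes (Apoa1), and not for Alb or Afp. Their part in the values below was not tested.

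Introns make up most of a long mammalian gene, and accessible stretches within them are often enhancers, which bind transcription factors and act on promoters at a distance. Others are internal promoters, from which shorter forms of the same gene are transcribed, or starts of nested genes. Intronic enhancers need not act on the gene that contains them. Promoters of widely used genes are often rich in CpG, a C followed by a G, whereas enhancers usually are not.

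Some members coincided with a start of their own host that is annotated in RefSeq for GRCm38.p6, the assembly behind mm10. The windows taken around each start reach from 250 bases before it to 50 bases after it. Of the 12 hosts with most members, 5 had such a start in the interior under a shared region, namely Nav2, Foxp1, Zfhx3, Sgms1 and Frmd4a. Windows of 4 of these hosts are shown because they place an annotated promoter deep within a leading host. Runx1, Tbc1d1 and Mctp1 were picked after their values were seen. Runx1 had the widest member at a start of its own host, Tbc1d1 had narrower peaks in KO, and Mctp1 had a member over few CpG. Sequences run 5′ to 3′ on the strand of the gene, in mm10 coordinates, and capitals mark every CpG.
Nav2, chr7:49245939-49246238, plus strand: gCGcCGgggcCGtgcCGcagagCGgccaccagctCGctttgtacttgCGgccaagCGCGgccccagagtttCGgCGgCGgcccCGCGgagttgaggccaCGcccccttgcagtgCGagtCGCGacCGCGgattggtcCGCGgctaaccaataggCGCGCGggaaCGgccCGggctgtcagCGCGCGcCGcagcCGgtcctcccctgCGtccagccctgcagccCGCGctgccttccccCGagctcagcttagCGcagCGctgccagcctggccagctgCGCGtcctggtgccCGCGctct
Foxp1, chr6:99028249-99028548, minus strand: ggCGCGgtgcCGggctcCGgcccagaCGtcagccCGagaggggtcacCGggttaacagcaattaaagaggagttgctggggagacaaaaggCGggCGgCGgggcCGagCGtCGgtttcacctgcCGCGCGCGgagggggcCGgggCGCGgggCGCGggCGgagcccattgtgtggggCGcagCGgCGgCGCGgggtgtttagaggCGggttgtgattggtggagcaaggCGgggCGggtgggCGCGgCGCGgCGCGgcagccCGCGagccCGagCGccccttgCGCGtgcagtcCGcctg
Sgms1, chr19:32210964-32211263, minus strand: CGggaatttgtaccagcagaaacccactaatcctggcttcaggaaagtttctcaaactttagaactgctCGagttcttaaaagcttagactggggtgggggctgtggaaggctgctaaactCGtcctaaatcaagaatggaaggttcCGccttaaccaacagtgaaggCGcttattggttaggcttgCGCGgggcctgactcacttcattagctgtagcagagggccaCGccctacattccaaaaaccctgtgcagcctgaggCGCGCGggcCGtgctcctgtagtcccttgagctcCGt
Frmd4a, chr2:4559504-4559803, plus strand: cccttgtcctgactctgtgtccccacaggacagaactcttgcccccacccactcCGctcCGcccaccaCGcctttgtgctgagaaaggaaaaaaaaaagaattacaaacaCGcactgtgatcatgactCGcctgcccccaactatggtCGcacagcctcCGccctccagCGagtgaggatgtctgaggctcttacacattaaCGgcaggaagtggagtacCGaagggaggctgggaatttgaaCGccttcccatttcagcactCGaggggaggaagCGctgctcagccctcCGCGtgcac
Runx1, chr16:92697280-92697579, minus strand: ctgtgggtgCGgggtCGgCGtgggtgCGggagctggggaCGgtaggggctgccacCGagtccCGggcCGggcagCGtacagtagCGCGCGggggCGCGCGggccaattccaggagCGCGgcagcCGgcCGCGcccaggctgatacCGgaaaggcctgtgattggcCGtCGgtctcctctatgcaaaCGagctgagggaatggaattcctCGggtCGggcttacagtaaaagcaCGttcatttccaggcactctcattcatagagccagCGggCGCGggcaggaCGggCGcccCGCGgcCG
Tbc1d1, chr5:64230107-64230406, plus strand: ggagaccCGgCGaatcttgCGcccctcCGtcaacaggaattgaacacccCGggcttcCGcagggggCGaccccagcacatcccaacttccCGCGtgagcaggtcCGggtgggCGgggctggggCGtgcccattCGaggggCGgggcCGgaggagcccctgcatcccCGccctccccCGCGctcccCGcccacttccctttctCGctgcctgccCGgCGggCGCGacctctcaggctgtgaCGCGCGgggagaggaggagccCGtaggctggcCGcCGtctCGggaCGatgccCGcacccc
Mctp1, chr13:76579347-76579646, plus strand: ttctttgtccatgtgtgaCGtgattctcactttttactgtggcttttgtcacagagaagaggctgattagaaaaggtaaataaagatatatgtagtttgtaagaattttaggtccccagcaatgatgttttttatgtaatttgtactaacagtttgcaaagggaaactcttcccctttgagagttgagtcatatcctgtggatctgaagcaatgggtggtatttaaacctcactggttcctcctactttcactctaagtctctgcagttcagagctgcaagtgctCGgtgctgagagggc

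The windows differed widely in CpG content. The Foxp1 window held 44 CpG in 300 bases, Nav2 held 42, Runx1 held 35 and Tbc1d1 held 33. The Frmd4a window held 15, Sgms1 held 13 and Mctp1 held 2. The median over all RefSeq start windows was 7. The Mctp1 and Sgms1 windows each held 1 match to TGANTCA, the site of AP-1, a stress-responsive transcription factor active in macrophages. A match is a description of the letters only, and 7.81% of all start windows held this motif on either strand.

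The members were unevenly spread over long genes. Of 21887 protein-coding genes placed on mm10, 2429 were longer than 100 kb and 2406 had an interior. Hosts numbered 1225, so 50.9% of genes with an interior held at least 1 member. A host held a median of 2 members, and 398 hosts held a single member. At the other end, 118 genes held at least 10 members each and together 1600 members (33.0%). Over all interiors, which spanned 371.5 Mb, there were 1.30 members per 100 kb. The number of members rose only loosely with the length of the interior (Spearman correlation of 0.41 across 2406 genes, a description, since genes share the same 4 libraries and longer interiors offer more room). Members lay a median of 86.4 kb from the nearer end of their host. Of the 4842, 1903 lay at least 100 kb from both ends and 47 at least 500 kb. The deepest were a pair in Dlg2, a synaptic scaffold gene, at 981.2 and 850.4 kb from the nearer end, followed by a region in Fhit at 793.9 kb.

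**Figure D1:**
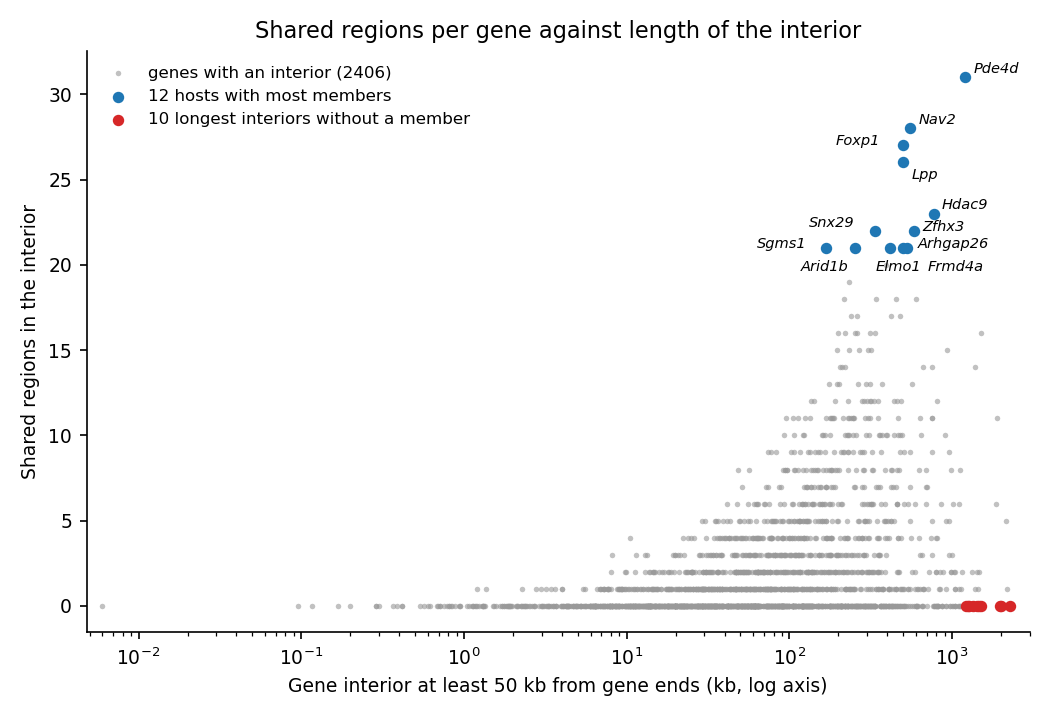
Shared regions in the interior of each of 2406 genes (vertical axis, count) against the length of the interior (horizontal axis, kb, log scale). Blue points are the 12 hosts with most members, from 21 in Arhgap26 to 31 in Pde4d, and red points are the 10 longest interiors without a member, from 1213.5 kb in Lrrc4c to 2276.8 kb in Dmd.

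Pde4d, which encodes a phosphodiesterase that breaks down cyclic AMP, led with 31 members in an interior of 1201.8 kb on chromosome 13. Its members reached 644.6 kb from the nearer gene end and stood a median of 28.3 kb apart. Nav2, a gene for a cytoskeleton-associated protein first described in neurons, followed with 28 members. Foxp1, a forkhead transcription factor, held 27, and Lpp, a LIM-domain protein of focal adhesions that also enters the nucleus, held 26. The next were Hdac9, a class IIa histone deacetylase, with 23, Snx29, a sorting nexin, with 22, and Zfhx3, a zinc finger and homeobox transcription factor, with 22. Sgms1 (sphingomyelin synthase), Arid1b (a subunit of the BAF chromatin remodelling complex), Elmo1 (which activates Rac together with Dock proteins during engulfment), Frmd4a (a FERM-domain scaffold) and Arhgap26 (a GTPase-activating protein) held 21 each. Length alone did not order these genes: the 21 members of Sgms1 lay in 167.2 kb and those of Arhgap26 in 531.3 kb. With the weakest 50% of each list removed, these 12 hosts held from 7 members (Frmd4a) to 14 (Pde4d and Hdac9). Where peaks had to cover at least 50% of the region, Pde4d held 15, Foxp1 16, Arhgap26 13 and Arid1b 11. At 100 kb from gene ends, Snx29 held 14, Arid1b 13 and Sgms1 6, and with the weakest 25% removed Foxp1 held 17.

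Members formed runs in some of the hosts and lay far apart in others. Among Sgms1 members the largest gap between midpoints was 16.2 kb. In Arhgap26 a single member was separated from the others by 279.5 kb, part of which was not interior because of the nested genes Fgf1 and Gm5820, and the largest gap in Pde4d was 207.2 kb. With predicted and read-through genes left out of the gene set, Arhgap26 held 27 members in place of 21. Over all hosts, 3623 gaps between neighbouring members of a host had a median of 12.8 kb, and 1540 of them (42.5%) were at most 10 kb. Where RefSeq gave the strand, 1948 of 3829 members (50.9%) lay nearer the 5′ than the 3′ end of the host.

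**Figure D2:**
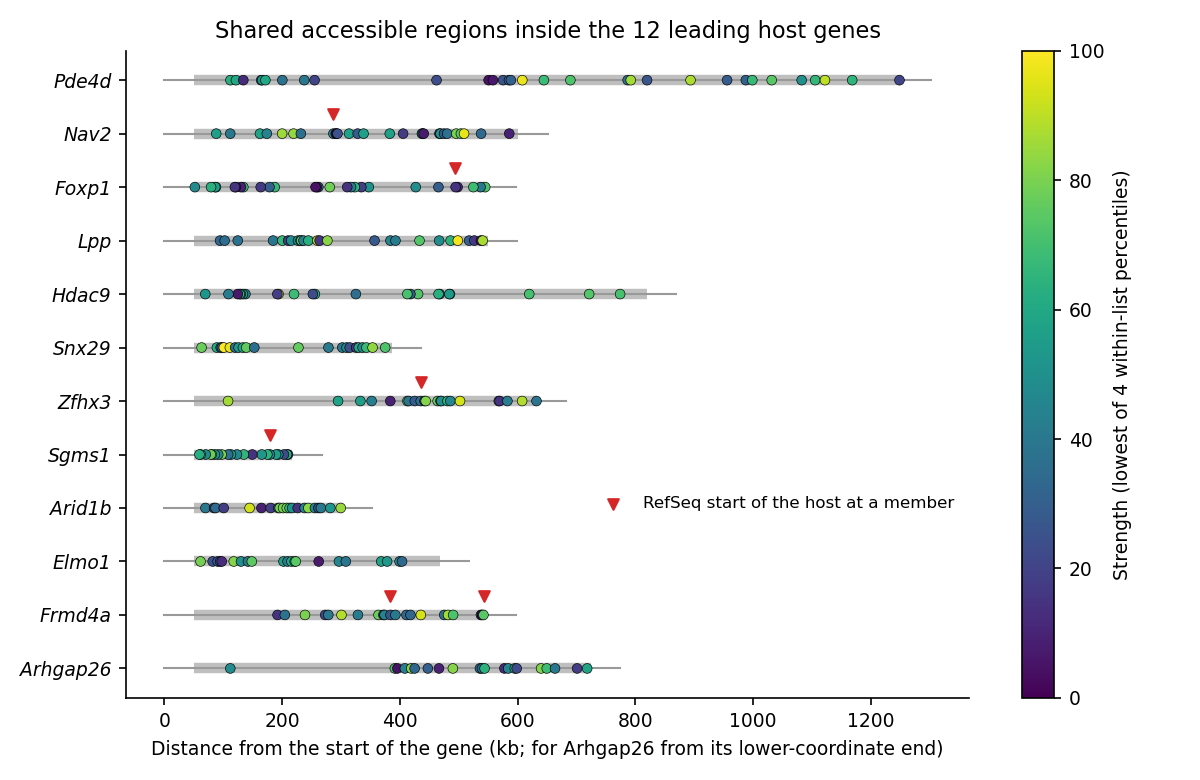
Positions of the members along the 12 leading hosts (horizontal axis, kb from the gene start, or from the lower-coordinate end for Arhgap26, whose strand the tables used here did not give). Thin lines are the genes, grey bars the stretch at least 50 kb from the ends of the host, points the members coloured by strength (the lowest of their 4 within-list percentiles of fold), and red triangles RefSeq starts of the host at a member, of which Frmd4a has 2 and Nav2, Foxp1, Zfhx3 and Sgms1 have 1 each.

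Hosts with the highest density were shorter. Among genes with at least 50 kb of interior, Ttc39c came first with 8 members in 56.3 kb, or 14.2 per 100 kb. Ubash3b, a phosphatase that damps receptor signalling, had 13.7 per 100 kb, Sgms1 had 12.6 and Rreb1, a zinc finger transcription factor, had 12.2. They were followed by Trak1 (an adaptor that ties mitochondria to motor proteins) at 11.6, the Src-family kinase gene Fyn at 11.5, the zinc finger gene Zfp704 at 10.8, the class I myosin gene Myo1e at 10.8, the lipid kinase gene Pip4k2a at 10.7 and Med13l, of the kinase module of Mediator, at 10.5. In Ttc39c, Zfp704 and Myo1e every library called the same number of interior peaks, namely 8, 9 and 10. In these 3 genes no interior region was called in fewer than 4 libraries.

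Very long genes could also be empty. The 10 longest interiors without a member included those of Dmd, Lsamp, Lrp1b, Nrxn3, Pcdh15, Rbfox1, Il1rapl1, Naaladl2 and Lrrc4c, most of which are known for roles in muscle or the nervous system. The Dmd interior spanned 2276.8 kb and held 4 regions, each called in fewer than 4 libraries. No library called a peak in the interiors of Lsamp (1997.4 kb), Lrp1b (1958.3 kb), Il1rapl1 (1275.0 kb) or Naaladl2 (1246.0 kb).

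Gene lists drawn up by function held hosts at very different rates. The lists and the members were chosen with earlier results of these data known, so the counts describe these genes and test nothing. The background is 1225 hosts among 2406 genes with an interior (50.9%), with a median of 0.18 members per 100 kb. The median interior was at least 112.3 kb in every list, against 70.4 kb over all genes. By length alone 40.9% of genes with an interior up to 100 kb were hosts, 66.4% of those with 100 to 300 kb and 64.0% of those above 300 kb. Median densities in these classes were 0, 1.07 and 0.26 members per 100 kb, and 0.06 for interiors over 1 Mb. The median of 0.18 over all genes is thus not that of genes of like length. Pooled over the genes of a class, the densities were 2.49, 1.90 and 0.69, and 0.21 over 1 Mb, against 1.30 over all genes. By that measure the shortest interiors were the densest. For the lists it gave 3.76 for Ras, Rap, Arf and Rab regulators and 2.98 for transcription and chromatin regulators. Phosphoinositide and calcium signalling came to 1.76, kinases and phosphatases to 1.60 and cytoskeleton and scaffold genes to 1.41.

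Regulators of Ras, Rap, Arf and Rab, small GTPases that switch signalling and membrane traffic on and off, were hosts at the highest rate of the lists given here. Of 33 such genes with an interior, 29 (87.9%) held a member, at a median density of 3.48 per 100 kb. Agap1 held 18, Psd3 held 17 and Asap1 held 15, all 3 of them genes for Arf regulators.

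Transcription and chromatin regulators came next, with 52 hosts among 64 genes (81.3%) and a median of 3.15 per 100 kb. Lpp (26 members), the focal adhesion protein that also enters the nucleus, is counted in this list. Besides the leading hosts, Cux1 held 16, Hivep3 and the Notch coactivator gene Maml3 15 each, Runx2 and Zbtb20 14 each, and Jazf1 13. Runx1, a regulator of blood cell development, held 6. Ebf1, needed for B cell development, held 0 in an interior of 290.0 kb. Protein kinases and phosphatases had 46 hosts among 60 genes (76.7%), led by the protein kinase C gene Prkce with 20 and by Cdk14 with 17. Fyn held 11 in 95.6 kb, and the receptor tyrosine kinase gene Erbb4 held 0 in 976.7 kb. Cytoskeleton and scaffold genes had 53 hosts among 69 (76.8%), with Nav2, Frmd4a, Frmd4b (19 members), Magi2 (14) and Gas7 (12), a gene first found in growth-arrested cells, at the top. Genes of phosphoinositide, cyclic nucleotide and calcium signalling had 34 hosts among 46 (73.9%). There Pde4d was followed by the anchoring protein gene Akap13 with 16 and Itpr2, a calcium channel of the endoplasmic reticulum, with 13, and the ryanodine receptor genes Ryr2 and Ryr3 held 0 in 453.8 and 486.1 kb. That list also holds Trps1 (8 members), a zinc finger gene that its name does not cover.

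The remaining lists had the lowest median densities. Their pooled densities were 0.61 for adhesion, 0.43 for fragile-site and 0.23 for neuronal genes, all below the 1.30 over all genes. Adhesion molecules and receptors had 26 hosts among 40 (65.0%) at a median of 0.80 per 100 kb. They were led by the sodium-calcium exchanger gene Slc8a1 with 13 and by the adhesion gene Cadm1 with 11. Slc8a1 and Slc9a9 (6 members) are transporter genes that the name of the list does not cover. Very long genes known for common fragile sites, places where chromosomes break under replication stress, had 16 hosts among 24 (66.7%) with a median interior of 1184.5 kb and a median density of 0.28. Rad51b held 18 and Fhit 16, whereas Lsamp, Lrp1b and Naaladl2 held 0. Neuronal and synaptic genes had 43 hosts among 98 (43.9%) with a median density of 0, although their median interior was 517.6 kb. Dscam held 12 members, the most on that list.

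**Figure D3:**
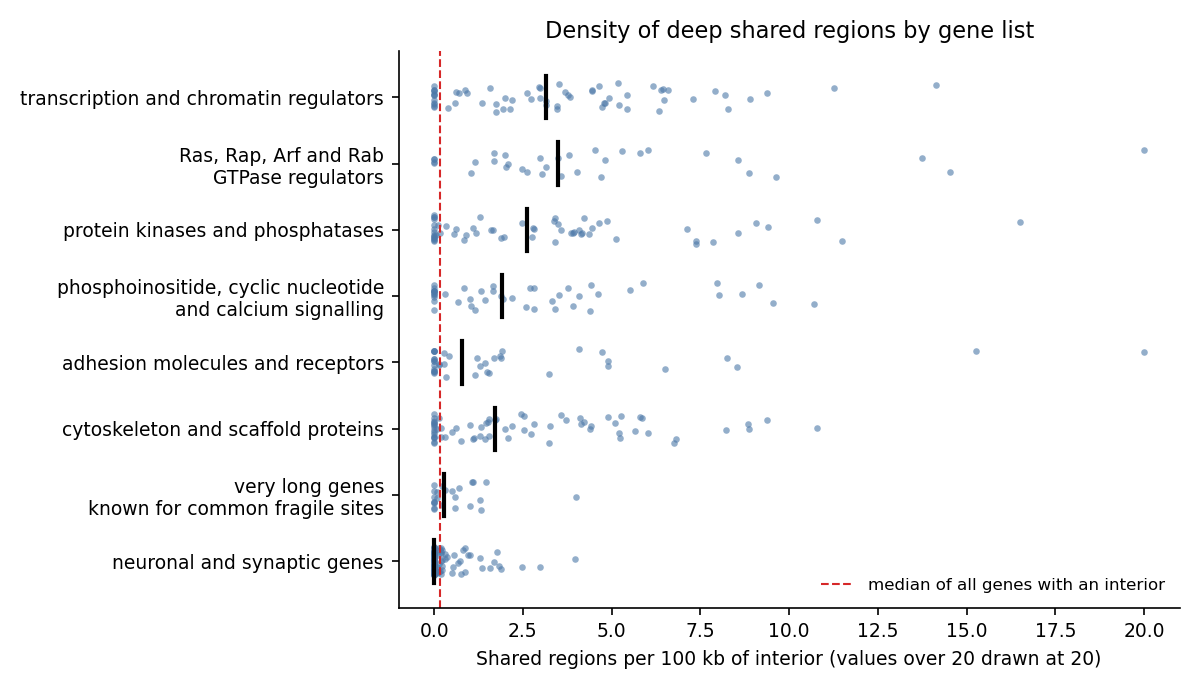
Members per 100 kb of interior (horizontal axis) for each gene of 8 lists, with a black bar at the median of the list and a dashed line at the median of all 2406 genes (0.18). List medians ran from 0 for neuronal and synaptic genes to 3.48 for regulators of Ras, Rap, Arf and Rab, and points at 20 stand for values of 20 or more.

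Members were modest in size. Their span had a median of 471 bp, with the middle 80% between 237 and 893 bp, against a median of 519 bp for the 48220 other shared regions. Spans of at least 1 kb were found for 342 members (7.06%) and for 13.2% of other shared regions. The fold of a peak is the authors' own value for its enrichment over local background. It is used here only as a rank within each list, and the strength of a region is the lowest of its 4 within-list percentiles. Member strength had a median of 45.6, against 49.8 for other shared regions, and 208 members (4.30%) reached 90, against 6.90%. Per library, the median peak width of members was 333.5 and 355 bp in WT and 316 and 354 bp in KO, against 383, 401, 372 and 408 bp for other shared regions. Members were thus narrower in 4 of 4 libraries, by 51.4 ± 4.50 bp (SD over 4 libraries), and their median percentile was lower by 3.14 ± 0.595 points, also in 4 of 4. The difference depended on the regions compared. Against shared regions more than 1 kb from any gene end, members were on average wider by 3.88 ± 4.09 bp and higher by 0.547 ± 0.441 percentile points. Against the 5169 shared regions outside genes and at least 50 kb from any, the mean difference was -2.38 ± 1.49 bp in width and -1.17 ± 0.225 points in percentile, with members lower in 4 of 4 libraries. Being called in all 4 libraries chose both sets, so widths and ranks within them are given without a test.

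The 10 strongest members spanned 156 to 628 bp. The top entry lay in Exoc4, a subunit of the exocyst complex that tethers secretory vesicles, 355.2 kb from the nearer gene end. It was 213 and 204 bp wide in WT and 222 and 220 bp in KO, with a strength of 99.9. The next lay in Prkg1, the gene of a cyclic GMP-dependent kinase, 518.4 kb inside it and at the end of the nested gene Cstf2t, which encodes a polyadenylation factor. That region measured 380 and 409 bp in WT and 428 bp in both KO libraries. Nkain3, Asph, Rapgef2, Dnah12, Snx29, Oxr1, Zfp407 and Fmnl2 held the others of the 10 strongest. The Snx29 region was 604 and 619 bp wide in WT and 628 and 622 bp in KO.

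The widest members were mostly of low rank. A region in Ccdc91 spanned 4942 bp, with 2570 and 2983 bp of peaks in WT and 3060 and 4303 bp in KO, and had a strength of 19.1. A region in Akap6, which anchors protein kinase A, spanned 3453 bp with a strength of 5.35. The Lrrk1 region was even across libraries, at 2232 and 2227 bp in WT and 2198 and 2336 bp in KO. Runx1, Wwp2, Foxp1, Slc4a4, Zfp469, Eya4 and Zmiz1 completed the 10 widest. The wide Foxp1 and Runx1 members are those over the windows printed above, and measured 1642, 1774, 1136 and 1951 bp and 1462, 2278, 1774 and 2193 bp in WT replicates 1 and 2 and KO replicates 1 and 2.

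Near the limit of the rule, the 3 members just inside lay in Trps1, Chl1 and Zfp618, at 50007, 50020 and 50028 bp from the nearer end. The 3 shared regions just outside lay in Elf1, Me1 and Pla2g4a, at 49989, 49994 and 49997 bp. The Trps1 region, in a gene for a GATA-type zinc finger protein, was 401 and 384 bp wide in WT and 401 and 485 bp in KO.

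Few members sat at an annotated start, and the rule sets part of this. Stretches within 50 kb of an end of a coding gene that contains them are not interior, so outer starts of hosts are left out. Of the windows in gene interiors, 0 were starts of another coding gene. The matching share of other shared regions at a start is not given here. Shared regions overlapped 12517 of 32851 RefSeq start windows (38.1%), but 136 of the 1132 windows in gene interiors (12%). The share was 96 of 426 (22.5%) for starts of the host itself and 40 of 706 (5.67%) for starts of non-coding genes. Outside interiors, the corresponding shares were 51.1% for coding and 15.9% for non-coding genes. Seen from the members, 125 (2.58%) overlapped a start window, 90 of them (1.86%) a start of their own host. Start windows were available for 1857 of the 2406 genes with an interior, and 3829 of the 4842 members lay in such genes. Members in the other genes could not be counted at a start of their host. These 125 were wider than the other 4717 members in each library, with medians of 613 and 602 bp in WT and 570 and 621 bp in KO against 330, 352, 311 and 349 bp. Their percentiles were close to those of the other members, at 54.8, 60.7, 56.1 and 59.4 against 57.8, 60.0, 56.3 and 59.8. The 95 start windows of the host at a member held a median of 15 CpG and 57.3% GC, and 45.3% held the GC box GGGCGG, the site of Sp1. The 331 start windows of the host without a member held a median of 6 CpG and 49.7% GC, and 22.1% held the GC box. With non-coding starts included, the 135 interior windows at members held a median of 11 CpG and the 997 others 4, with the GC box in 38.5% and 11.6%, against 35.6% of all start windows. TATAAA was found in 5.26% of host starts at a member and 13.9% of the other host starts, in 9.63% and 18.9% when non-coding starts were included, and in 13.6% of all start windows. All motifs were searched on both strands.

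The other annotated starts of long genes were open more often where the interior held members. A start window outside the interior was available for 1766 genes, and a shared region overlapped it in 1000 (56.6%). The share was 45.3% of 874 genes with no member, 64.2% of 458 genes with 1 to 2 members, 71.4% of 231 with 3 to 5, 74.5% of 137 with 6 to 10 and 65.2% of 66 with 11 or more. The groups also differ in the length of the interior, with a median of 38.5 kb at 0 members and 294.0 kb at 11 or more, and its part was not tested. Among the leading hosts, the outer start was open in Foxp1, Lpp, Snx29, Sgms1, Arid1b and Elmo1. In Pde4d, Nav2, Hdac9 and Frmd4a no shared region overlapped it, and Zfhx3 and Arhgap26 have no entry. Nav2 and Frmd4a thus had a shared region at an interior start and none at the outer window. The same held for 25 of the 62 genes that had both kinds of window and an interior start under a shared region, while in the other 37 both were open.

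**Figure D4:**
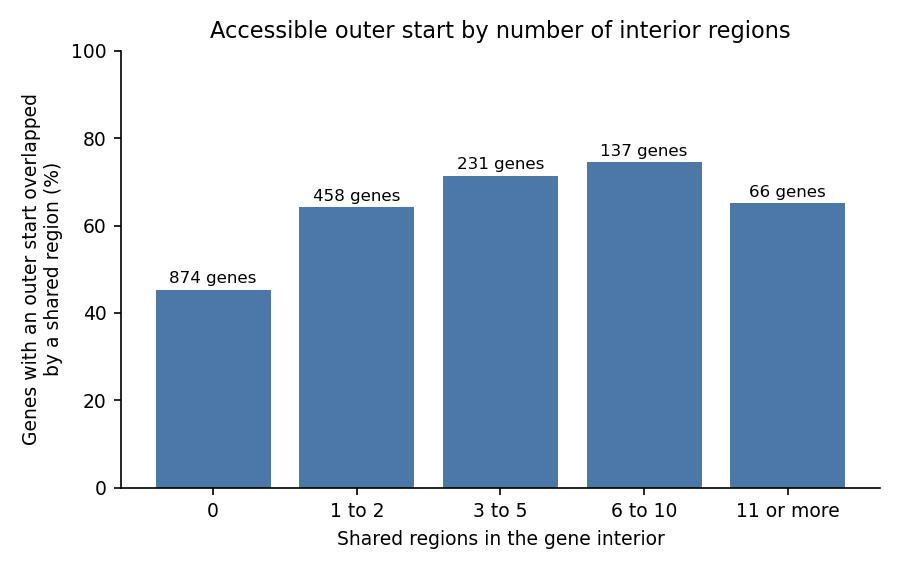
Percentage of genes whose RefSeq start window outside the interior was overlapped by a shared region (vertical axis), by the number of members in the interior (horizontal axis). Bars rise from 45.3% at 0 members to 74.5% at 6 to 10 and stand at 65.2% at 11 or more, and the number of genes is printed above each bar.

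A few members touched nested features. Within 1 kb of an end of another coding gene lay 6 members, at Angptl1 in Ralgps2, Gm19774 in Arhgap26, Fam122a in Pip5k1b, Cstf2t in Prkg1, P2ry14 in Med12l and Dhrs3 in Vps13d. The rule limits this number, because a region with its midpoint inside a nested gene and under 50 kb from its end is not a member. Within 50 kb of an end of another coding gene lay 196 members. P2ry14 encodes a receptor for UDP-glucose, and the region there was 490 and 441 bp wide in WT and 494 and 477 bp in KO, with a strength of 96.3. Of 73 microRNA hairpins in gene interiors, 2 were overlapped by a member, Mir6353 in Pid1 and Mir3092 in Fndc3b. Their mature forms in RefSeq are shown with the seed, bases 2 to 8, in capitals, because they are the microRNAs at which a member lay.
mmu-miR-6353: uAGCAGCAcguauuuauccuauu
mmu-miR-3092-3p: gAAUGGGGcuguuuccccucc
mmu-miR-3092-5p: aGGGGAAAaugccuuucuccca

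The comparison of genotypes asked whether chromatin inside long genes differed without Ezh2. By the rule every member was called in both genotypes, so the width of its peaks was compared. A linear model on log2 width, fitted with limma across all 53062 shared regions, called 0 at an adjusted p under 0.05 (0%), and 0 of 4842 members. At an unadjusted p under 0.05, limma gave 121 members wider in KO (2.50%) against 2.45% of all shared regions, and 162 wider in WT (3.35%) against 2.79%. Both KO peaks were wider than both WT peaks at 745 members (15.4%) against 16.2% of all shared regions, and the reverse held at 888 members (18.3%) against 16.9%. The median log2 difference, KO minus WT, was -0.02 over members and -0.00 over all shared regions. These shares lay near those of all shared regions. In simulated data on the same 53062 regions, the test recovered 145 of 200 regions changed by 1 on the log2 scale, with 3 false calls. It recovered 200 of 200 changed by 2, with 6 false calls. The simulation gave every region the same spread, the median of the real regions. It therefore does not show how many changes would be found at regions of larger spread.

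Single members with the largest differences did not pass the test. A region in Arid1b measured 503 and 612 bp in WT and 105 and 159 bp in KO. Its log2 difference was -2.10 (SE 0.32, limma adjusted p = 0.639). Zbtb20, Mpp7, Cask and Prkce held the next 4 that were wider in WT. In the other direction, a region in Npas2, a circadian transcription factor gene, measured 113 and 192 bp in WT and 606 and 610 bp in KO, with a log2 difference of 2.05 (SE 0.34, limma adjusted p = 0.653). Pakap, Nfatc1, Ncald and Gpc6 followed. The strongest member of Pde4d measured 726 and 718 bp in WT and 419 and 438 bp in KO. The groups did not overlap there, and limma gave a log2 difference of -0.75 (SE 0.12, adjusted p = 0.639). The member over the interior start of Tbc1d1, a Rab GTPase-activating protein of glucose uptake, measured 997 and 1030 bp in WT and 333 and 396 bp in KO. Its rank was high in all lists, with a strength of 96.3, and its log2 difference was -1.48 (SE 0.14, limma adjusted p = 0.590). No shared region had a lower adjusted p, and other regions, among them the Pakap member, had the same value.

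Counts of all peaks in gene interiors, members or not, showed no difference beyond replicate spread. WT libraries had 6739 and 7369 interior peaks and KO libraries 6458 and 7136, which was 9.74% and 10.1% of the WT lists and 9.63% and 10.0% of the KO lists. The difference in share was -0.0906 percentage points, with an exact two-sided permutation p of 0.667, where 0.333 is the smallest that 2 libraries against 2 can give. Of 9826 union regions in interiors, 4842 (49.3%) had a peak in each of the 4 libraries, against 57.8% of all union regions. Peaks in both KO libraries and no WT library were found at 174 (1.77%) against 1.47% of all union regions, and the reverse pattern gave 204 (2.08%) against 2.03%. Pairs made of 1 library of each genotype alone called between 103 and 277 interior regions.

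Among the leading hosts, interior peaks of WT replicates 1 and 2 and KO replicates 1 and 2 were 45, 49, 42 and 44 in Pde4d, with both WT lists above both KO lists. Hdac9 had 30, 33, 28 and 29, also without overlap, and Elmo1 had 24, 22, 26 and 26, with KO above WT. In the other 9 leading hosts the genotypes overlapped or tied. Both WT lists exceeded both KO lists in 18 of the 118 hosts with at least 10 members (15.3%), against 8.73% of all 1225 hosts, and both KO lists exceeded both WT lists in 13 (11%), against 4.65%. How far ties in hosts with few peaks set these shares was not tested. Magi2, a membrane scaffold gene, had the largest difference among hosts whose lists did not overlap, with 28 interior peaks in each WT library and 20 and 17 in KO. Aopep, Lrmda and Nbea followed, each with a mean difference of -4.5 peaks, KO minus WT. In the other direction Elmo1, Iqsec1, Pard3, Prkcb and Tiam1 each had a mean of 3 peaks more in KO without overlap, as in Tiam1 with 19 and 20 against 23 and 22. Elmo1, Magi2 and Tiam1 were also among the hosts named by rule, and the others were named here after their values were seen. The differences were picked by their size, and no test was run on them.

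**Figure D5:**
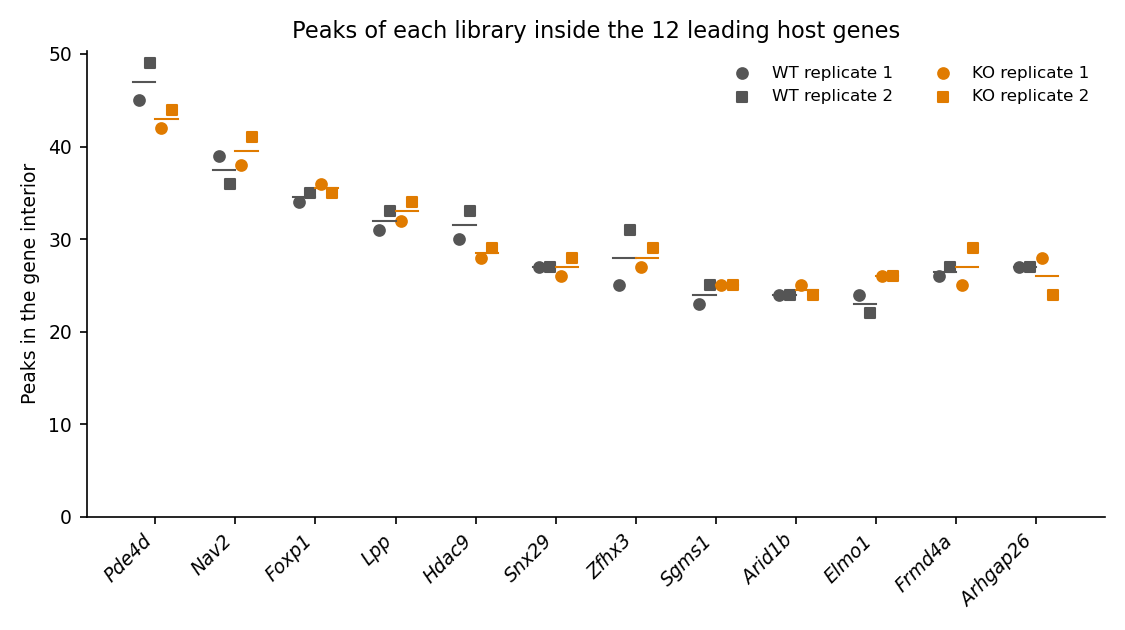
Peaks of each library in the interiors of the 12 leading hosts (vertical axis, count), with WT in grey and KO in orange, replicate 1 as circles, replicate 2 as squares and short lines at the group means. Pde4d and Hdac9 are higher in both WT libraries and Elmo1 in both KO libraries.

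Shared regions were few on the X chromosome, which held 1.93% of all of them and 1.26% of the members. The 61 members there came to 0.34 per 100 kb of interior, against 1.35 on the autosomes, and 29 of its 114 genes with an interior were hosts. The X interiors include the empty ones of Dmd (2276.8 kb) and Il1rapl1 (1275.0 kb). The labels used here do not give the sex of the mice, and its part was not tested. Sh3kbp1, an endocytic adaptor gene, held 11 and the scaffold gene Cask 7. Among autosomes the density was highest on chromosome 17 at 2.04 per 100 kb and on chromosome 13 at 1.90.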

How the data were processed

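ATAC-seq peak lists of 4 libraries (2 WT, 2 KO, grouped by their titles) were used. Per the submitters' processing notes, fastp, Bowtie2 and MACS2 were used with mm10, with versions, read shifting and filters not given in the sources used here. Per library, the authors deposited 1 broad peak list, not pooled, with peak coordinates, a score, a fold ratio, and −log10 p and −log10 q values (the largest q was 0.0497). In the deposited lists 261 to 322 peak numbers are skipped, so some peaks had been removed. Depth is unknown. A missing peak may reflect depth, and the number of libraries limits the precision.

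Genes, strands and start windows came from RefSeq tables of GRCm38.p6. The members and lists were chosen with earlier results of these data known. Named hosts were the 12 with most members, the 10 densest with at least 50 kb of interior, the 10 longest interiors without a member, and listed genes among the 50 hosts with most members. Named regions were the strongest and widest of the 6 leading hosts, the 10 strongest and 10 widest members, the 5 with the largest width difference each way, and 3 on each side of the limit. 1 further gene list and some genes are not reported here. Genes picked after their values were seen are named as such. Width was the summed peak width per library and region, tested on a log2 scale with limma 3.58.1 (trend, Benjamini-Hochberg) in R 4.3.3, and interior totals by an exact permutation test. The limma fit was tested on simulated data. Merging and counting used Python 3.11.15, pandas 2.3.3 and scipy 1.17.1. Alternatives changed the distance to gene ends, the share of a region that peaks had to cover, the weakest peaks kept and the libraries used. Others left out predicted and read-through genes or the sex chromosomes, or changed the width scaling and the replicate block. Replicate numbers did not pair the libraries: deviations from group means correlated at 0.0105 between same-numbered libraries.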

Additional observations from a re-analysis of the deposited data

How the results depend on the processing

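At 25 kb and 100 kb from gene ends there were 9072 and 1903 members and 2558 and 466 hosts, and with the weakest 50% of each list removed 2157 members. The lead over all genes in percentage of hosts became 12.5 points for kinases and phosphatases at 100 kb and 36.3 for phosphoinositide and calcium signalling at 25 kb. For adhesion genes it was 22.6 at 25 kb, 9.16 and 1.30 with the weakest 25% and 50% removed, and reversed to -8.32 at 100 kb. For neuronal genes it was -3.43 at 25 kb, -16.9 at 100 kb and -4.01 with the weakest 25% removed. These list settings were chosen after seeing the data. The KO minus WT difference in interior share reversed to 0.0545 points with the weakest 50% removed and ran from -0.293 to 0.111 when each library was left out, turning positive without WT replicate 2 (0.0959) or KO replicate 1 (0.111). Member width minus that of other shared regions was -85.9 bp against regions inside genes but under 50 kb from an end, -2.38 bp against regions far outside genes and 3.88 bp, reversed, against regions over 1 kb from any gene end, where the percentile difference was 0.547 points, also reversed. The percentile difference from regions far outside genes was -1.17. The cause was not tested. With a replicate block, limma called 0 members (264 at an unadjusted p under 0.05), and it called 0 members under every other width setting run. Of the 12 leading hosts, 9 stayed among the first 12 at 100 kb, 9 when a call needed 50% cover and 7 with the weakest 50% removed, and in the latter 2 settings Nav2 (22 members) came first and Hdac9 tied with Pde4d (14 each). Unknown depth limits what a missing peak shows.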
